A study of Mus musculus with 19 samples.

Results

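Collagen and laminin genes encode the chains of the triple-helical collagens and of the heterotrimeric laminins, the main structural proteins of connective tissue and of basement membranes. All genes of the mouse count table whose symbol has the form of a collagen chain (Col, type number, a, chain number) or a laminin chain (Lam, a, b or c, number) were taken, by a rule on symbols that uses no measured value. The rule matched 56 of the 49089 genes, and 55 of them encode chains (44 collagen and 11 laminin genes). The remaining match, Col4a3bp, encodes a ceramide transfer protein and is kept out of all counts of chains (logFC 0.45 and FDR 0.0124 in INT against CONT, terms explained below). The 44 collagen genes were grouped as 11 fibrillar, 6 type IV and 27 other collagens, beside the 11 laminins. RNA was sequenced from the endometrium of wild-type C57Bl/6 females, scraped from the muscle layer, in 19 libraries of 5 groups. CONT is 3 libraries of virgin females at estrus, around ovulation, numbered 1, 2 and 4 in the labels. INT is 4 libraries of females aged 8 to 14 weeks, mated with intact BALB/c males and collected at day 3.5 pc (post-coitum). Per the paper, CONT was collected late in the evening and INT at midday. Time of day can thus not be told apart from cycle stage and mating between them. SVX, SVX_VAS and VAS are 3 sets of 4 libraries of females whose BALB/c mates had been operated on, also collected at day 3.5 pc. For these 3 sets the column codes and the sample titles name different surgeries, since the SVX columns are titled vasectomised, the SVX_VAS columns seminal vesicle-deficient and the VAS columns seminal vesicle-deficient/vasectomised. They are therefore called by their column codes, and no surgery is assigned to them. Each library is a pooled sample, so that p-values measure the spread between pools, and the number of animals in a pool is not given in the sources used here.

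Fibrillar collagens (types I, II, III, V, XI, XXIV and XXVII) form or seed the fibers of the stroma. Type IV collagen chains join into the network of basement membranes, which lie under epithelium, around vessels and around muscle cells, and laminins polymerize beside that network and bind integrins on the cell surface. In the uterus of rodents the stroma loosens and swells under ovarian steroids before implantation, and stromal cells that become decidual cells surround themselves with basement membrane proteins.

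Totals lay between 12661266 and 31781270 counts per library, and a count of 0 allows up to 3 counts, or 0.0944 to 0.237 CPM (counts scaled to the library total), for counting error only. The 55 chains together held 1.08% to 2.53% of the counts. VAS replicates 2 and 3 stood apart, with the most abundant gene at 1643 and 1657 CPM against 7243 to 14114 CPM in the other 17 libraries. They also had counts in 25016 and 25037 genes, against 27757 to 29626 genes in the other 17. The departure was thus one of whole libraries and not of the chains alone. CPM below are scaled with edgeR's TMM factors, which were 1.29 and 1.33 in VAS replicates 2 and 3 and 0.846 to 1.02 in the other libraries. Genes that reached 3 CPM, before TMM scaling, in 3 or more libraries were tested. A gene is said to have risen or fallen at an FDR (Benjamini-Hochberg, edgeR's quasi-likelihood test over 17222 genes) of 0.05 or less and a logFC (log2 fold change) past a 1.5-fold change in size. Of the 55 chains 52 were tested. Col2a1, Col9a1 and Col19a1 did not pass the filter, with at most 0.228, 0.0758 and 0.470 CPM in any library. Exons of 12 chains overlap a gene on the opposite strand (Col4a1, Col4a2, Col4a3, Col5a1, Col6a4, Col6a6, Col9a3, Col10a1, Col15a1, Col22a1, Lama3 and Lamc3), and those of Col3a1, Col7a1 and Col20a1 a gene on the same strand, so that reads of these chains are less certain. Epithelial, stromal and endothelial markers of the endometrium were detected in all 19 libraries, with summed levels given below.

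Between estrus and day 3.5 pc of a mating with intact males, 4 of 6 type IV collagen chains, 5 of 7 fibril-associated collagens and both multiplexins rose. The chains of type I and type III collagen, the most abundant fibrillar types, were not called with all libraries in the fit. Of the 11 laminin chains 5 rose and 2 fell. Of the 52 chains tested in INT against CONT, 24 (46.2%) rose, against 20.9% of all genes tested. 2 chains fell (3.85%, against 12.7% of all genes), among them Lama5, and 26 were not called. Without VAS replicates 2 and 3 in the fit, 24 of 49 chains tested rose, with Col3a1 (type III collagen) among them, and 3 fell, with Col17a1 among them, against 22.9% and 15.2% of all genes. All INT libraries lay above all CONT libraries in 27 chains and below them in 9, where the shares of all genes were 31.0% and 31.3%. The median logFC was 0.63 over the 52 chains, 1.0 over the 6 type IV chains, 0.12 over 10 fibrillar chains, 0.93 over 25 other collagens and 0.49 over 11 laminins, against -0.01 over all genes tested. Since RNA came from whole tissue, fewer cells of a type and less RNA per cell cannot be told apart.

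**Figure D1:**
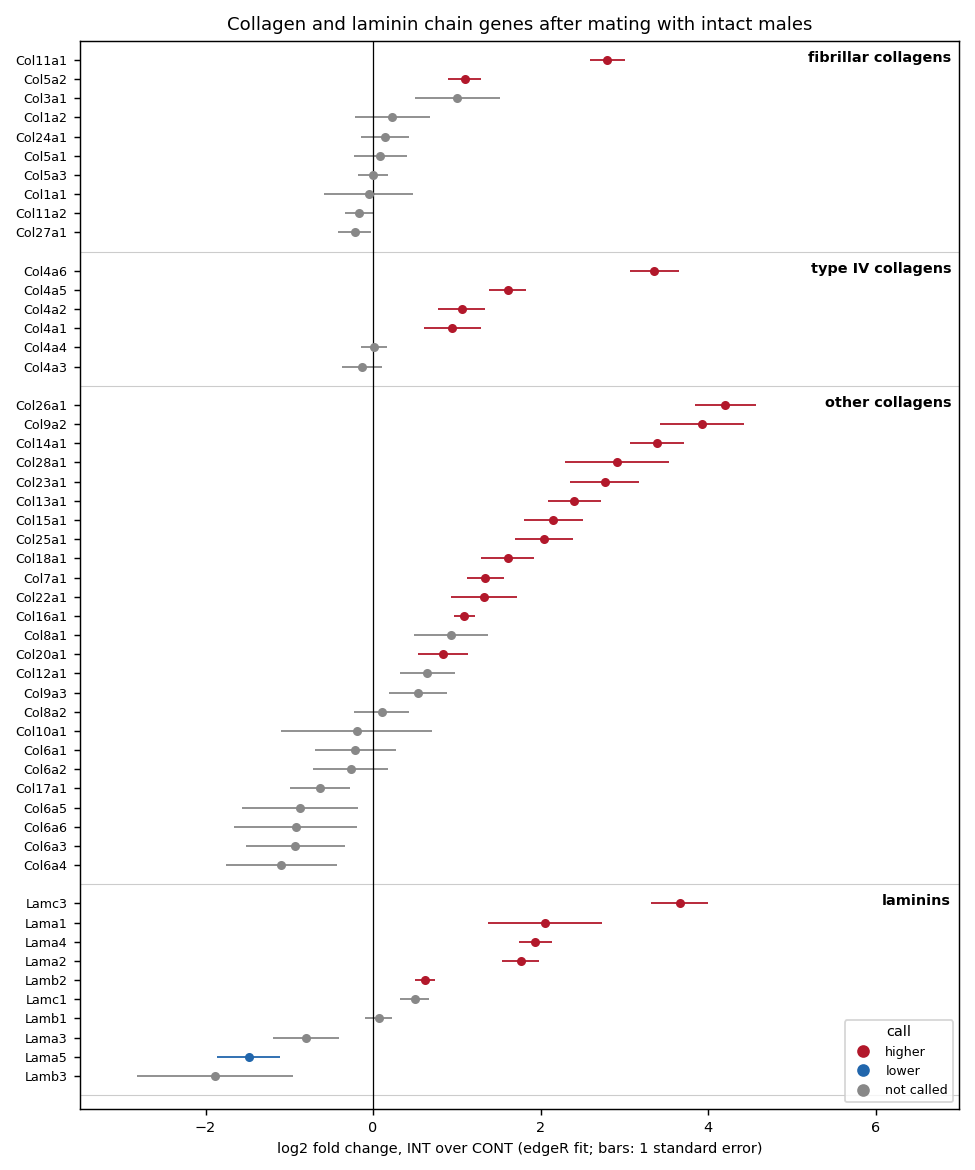
Log2 fold change of 51 of the tested chains in INT over CONT (x axis) by gene and class (y axis), with bars of 1 standard error and colors for the call. In the type IV class Col4a6, Col4a5, Col4a2 and Col4a1 lie to the right of 0 and Col4a3 and Col4a4 at it, and Lamb3 and Lama5 lie farthest to the left.

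Summed over a class, the 6 type IV chains had 1201, 1397 and 1193 CPM in CONT 1, 2 and 4 and 2205, 2332, 3216 and 2971 CPM in INT 1 to 4, so that the groups did not overlap. The 11 fibrillar genes summed to 6697, 6101 and 6703 CPM in CONT and 10467, 8894, 8753 and 7199.6 CPM in INT, also without overlap. The 27 other collagens summed to 7546 to 8580.5 CPM in CONT and 5861 to 8224 CPM in INT, where the groups overlapped. The 11 laminins summed to 3691, 3445 and 3631 CPM in CONT and 3067, 2671, 2702 and 2527 CPM in INT, with every INT library below every CONT library. These sums are descriptions without a test, and a few abundant chains make up most of each.

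Of the 4 classes, type IV collagen had the largest share of chains that rose, 4 of 6 (66.7%), before the other collagens with 13 of 25 (52%). The call of Col4a1 is not firm, and this rank depends on it. The 6 genes lie in 3 head-to-head pairs, in which the genes start near each other on opposite strands. Both genes of the Col4a1 and Col4a2 pair rose, as did both of the Col4a5 and Col4a6 pair, whereas Col4a3 and Col4a4 did not pass the test. For this reason the promoter windows of the 4 chains that rose are shown, from 250 bases before to 50 bases after the start in RefSeq (GRCm38.p6), 5′ to 3′ on each gene's own strand. Capitals mark matches on either strand to 4 motifs, which are the GC box (its letters being GGGCGG), the CCAAT box under that name, the TATA box (searched as TATAAA) and the AP-1 motif (searched as TGANTCA, where N is any base). The windows are chr8:11312777-11313076 (minus strand), chr8:11312555-11312854 (plus strand), chrX:141475169-141475468 (plus strand) and chrX:141474027-141474326 (minus strand).
Col4a1: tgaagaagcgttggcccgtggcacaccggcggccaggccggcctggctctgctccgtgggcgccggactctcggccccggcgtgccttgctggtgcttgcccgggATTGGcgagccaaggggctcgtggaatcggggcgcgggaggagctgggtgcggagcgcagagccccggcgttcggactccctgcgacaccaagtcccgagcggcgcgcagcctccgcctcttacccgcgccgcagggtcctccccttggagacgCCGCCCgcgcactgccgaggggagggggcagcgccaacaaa
Col4a2: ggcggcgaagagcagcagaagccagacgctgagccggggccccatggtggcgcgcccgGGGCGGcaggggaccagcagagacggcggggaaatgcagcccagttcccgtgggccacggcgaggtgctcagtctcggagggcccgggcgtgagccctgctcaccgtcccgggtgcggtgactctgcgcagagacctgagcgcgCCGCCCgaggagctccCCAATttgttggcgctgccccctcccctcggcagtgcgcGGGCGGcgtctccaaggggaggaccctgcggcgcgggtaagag
Col4a5: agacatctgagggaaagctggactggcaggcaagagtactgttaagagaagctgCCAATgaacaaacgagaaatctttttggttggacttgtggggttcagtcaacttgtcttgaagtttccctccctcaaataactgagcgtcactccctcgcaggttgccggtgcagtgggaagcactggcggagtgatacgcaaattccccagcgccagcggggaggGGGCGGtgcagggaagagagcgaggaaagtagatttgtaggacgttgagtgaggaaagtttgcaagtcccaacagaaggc
Col4a6: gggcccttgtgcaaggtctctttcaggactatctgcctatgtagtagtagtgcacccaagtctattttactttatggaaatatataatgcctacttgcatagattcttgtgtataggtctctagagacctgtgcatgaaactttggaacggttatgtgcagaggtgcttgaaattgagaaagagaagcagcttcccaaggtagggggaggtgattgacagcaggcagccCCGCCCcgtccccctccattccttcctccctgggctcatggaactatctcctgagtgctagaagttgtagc
The starts of Col4a1 and Col4a2 lie 21 bases apart and their windows share 78 bases, while those of Col4a5 and Col4a6 lie 1343 bases apart. GC boxes numbered 1 in the window of Col4a1, 3 in that of Col4a2, 1 in that of Col4a5 and 1 in that of Col4a6, and those 4 windows held no TATA box and no AP-1 motif. Among 44 windows found for 40 of the 55 chains, 59.1% held a GC box, 31.8% a CCAAT box, 11.4% a TATA box and 2.27% an AP-1 motif. The shares of all 32851 windows of the same length were 35.7%, 37.4%, 13.6% and 7.81%. A match of letters describes a window and shows no binding, and an absent match says only that these letters are not in the window.

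Col4a1 (ENSMUSG00000031502.11, chromosome 8, 11198423 to 11312826) and Col4a2 (ENSMUSG00000031503.13, chromosome 8, 11312805 to 11449287) encode the chains of the common network of all basement membranes. Col4a1 had 648, 759 and 649 CPM in CONT and 1101, 1119, 1649 and 1414 CPM in INT (logFC 0.95, standard error 0.34, FDR 0.0285). Col4a2 had 372, 440.2 and 363 CPM in CONT and 624, 739, 1013 and 887 CPM in INT (logFC 1.06, standard error 0.28, FDR 0.00537). For both genes every INT library lay above every CONT library, and INT 3 was the highest. The call of Col4a1 was lost when all genes with a count were tested, and on leaving out CONT replicate 1, 2 or 4 or INT replicate 3 or 4, with an FDR of up to 0.0880. Without VAS replicates 2 and 3 its FDR was 0.000111, and in those libraries Col4a1 stood at 381 and 411 CPM. Exons of the genes overlap each other on opposite strands only between positions 11312805 and 11312826. Without strand in the counting, reads within that short stretch could not be told apart.

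Col4a5 (ENSMUSG00000031274.16, chromosome X, 141475385 to 141689234) and Col4a6 (ENSMUSG00000031273.16, chromosome X, 141165403 to 141474076) encode chains of basement membranes of smooth muscle and some epithelia. Col4a6 had 16.3, 16.2 and 16.3 CPM in CONT and 131, 143, 178 and 217 CPM in INT (logFC 3.36, standard error 0.29, FDR 1.45e-06). It stood at 159, 232, 236 and 238 CPM in SVX, 217, 161, 208 and 161 CPM in SVX_VAS and 86.6, 157, 167 and 230.4 CPM in VAS. The 3 estrus pools thus held nearly one level, and the lowest of the 16 mated libraries, VAS replicate 1, was above all of them. Col4a5 had 104, 101 and 103 CPM in CONT and 273, 262, 324 and 389 CPM in INT (logFC 1.61, standard error 0.22, FDR 3.38e-05). Both genes were called under all 16 other settings tried, with an FDR of at most 0.000870. Col4a3 (27.2 to 42.6 CPM in CONT and 24.1 to 34.6 in INT) and Col4a4 (30.4 to 38.9 and 27.5 to 41.6 CPM), which encode chains of the kidney filter and a few other membranes, had logFC of -0.13 and 0.02 with FDR of 0.692 and 0.951. Of 6 smooth muscle markers 1 rose, and their sum was 320.5 to 727 CPM in CONT and 412 to 1283 CPM in INT. Of 6 endothelial markers 6 rose, with sums of 133, 198 and 156 CPM in CONT and 515, 587, 786 and 798 CPM in INT, and their part in the type IV result was not tested.

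**Figure D2:**
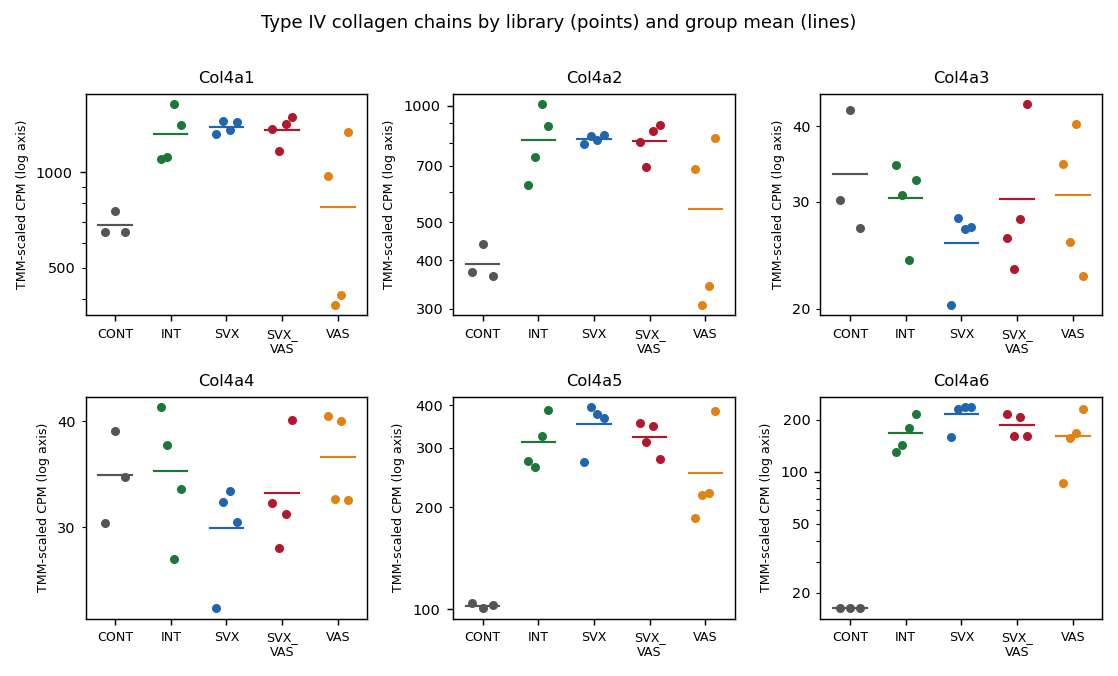
TMM-scaled CPM of the 6 type IV collagen chains (log y axes) in the libraries of the 5 groups (x axis), with points for libraries and lines for group means. Col4a6 lies at 16.2 to 16.3 CPM in the 3 CONT libraries and at 86.6 CPM or more in the 16 mated libraries, and VAS replicates 2 and 3 lie below CONT for Col4a1 and Col4a2 but not for Col4a5 and Col4a6.

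Among the fibrillar collagens 2 of 10 tested genes rose, both of them chains of the minor fibril types. This share, 20%, is near the 20.9% of all genes tested. Col11a1 (ENSMUSG00000027966.20, chromosome 3, 114030540 to 114220718), a chain of type XI collagen that helps to set fibril diameter, had 8.44, 7.86 and 7.28 CPM in CONT and 48.9, 45.6, 65.9 and 58.5 CPM in INT (logFC 2.80, standard error 0.20, FDR 6.49e-07). Col5a2 (ENSMUSG00000026042.16, chromosome 1, 45374321 to 45503282), a chain of the type V collagen that starts fibrils, had 250.04, 290.0 and 269 CPM in CONT and 552, 508, 671 and 567 CPM in INT (logFC 1.09, standard error 0.19, FDR 0.000252). In neither gene did the groups overlap, and both calls held under all 16 other settings.

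Col3a1 (ENSMUSG00000026043.18, chromosome 1, 45311538 to 45349706), which encodes type III collagen of soft and distensible tissues, had the highest CPM of the fibrillar class in every INT library. It had 1760.5, 1637 and 1800.2 CPM in CONT, 3559, 3484, 3716 and 3139 in INT, 3179, 3239, 2923 and 3216 in SVX, 2837, 2843, 3266 and 3283 in SVX_VAS and 3536, 532, 544 and 3197 in VAS. In 14 of the 16 mated libraries it was thus above all 3 estrus libraries, and in VAS replicates 2 and 3 it was below them. With all 19 libraries in the fit the gene was not called in INT against CONT (logFC 1.0, standard error 0.51, FDR 0.115). Without VAS replicates 2 and 3 the logFC was 1.0, the standard error 0.08 and the FDR 2.44e-06 in edgeR, so that the call depends on whether those libraries are in the fit. With only the INT and CONT libraries in the fit the FDR was 0.000919.

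Col1a1 (ENSMUSG00000001506.10, chromosome 11, 94936224 to 94953042) and Col1a2 encode the chains of type I collagen. Col1a1 had 2313, 1911 and 2224 CPM in CONT and 2952, 1984, 1945 and 1429 CPM in INT, with INT replicates on both sides of the estrus range (logFC -0.05, standard error 0.53, FDR 0.954). Col1a2 had 1632, 1476 and 1701 CPM in CONT and 2465, 2061, 1639.7 and 1357 CPM in INT (logFC 0.23, standard error 0.44, FDR 0.717). The direction of Col1a1 was not fixed, as its logFC turned to 0.030 with the replicate block and to 0.095 without INT replicate 4. Neither gene was called, with or without VAS replicates 2 and 3 (FDR 0.896 and 0.367 without them). Of the other fibrillar chains, Col5a1, Col5a3, Col11a2, Col24a1 and Col27a1 had logFC between -0.22 and 0.14 with FDR of at least 0.380.

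**Figure D3:**
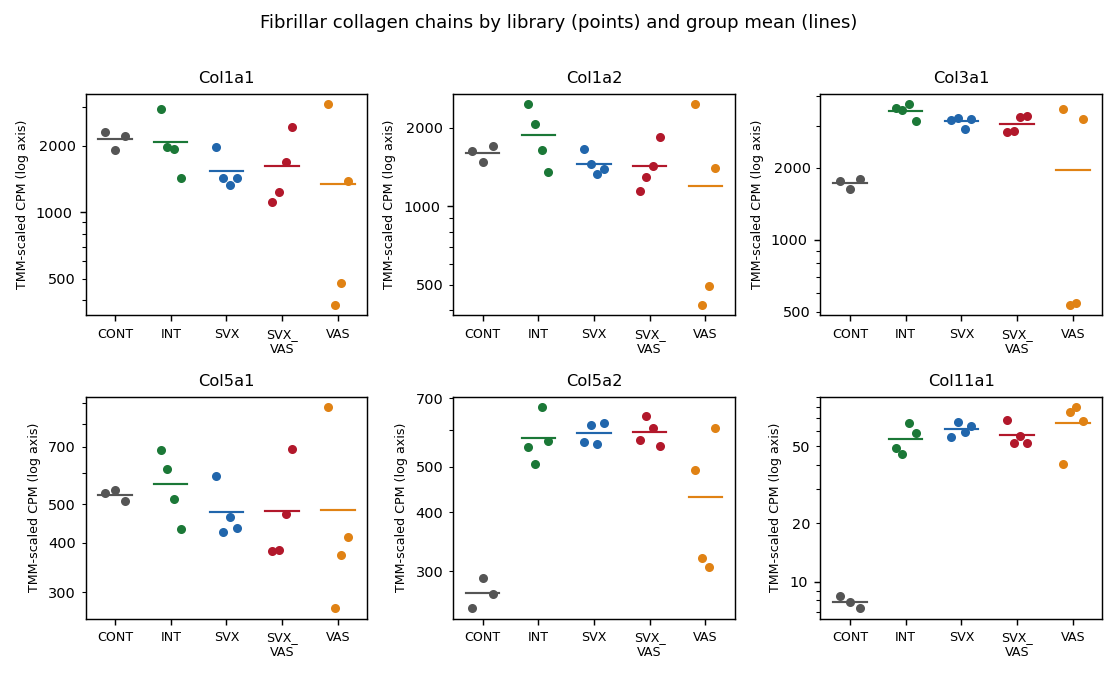
TMM-scaled CPM of 6 fibrillar collagen chains (log y axes) in the libraries of the 5 groups (x axis), with points for libraries and lines for group means. Col11a1 and Col5a2 are above estrus in every mated library, Col1a1 and Col1a2 overlap with it, and VAS replicates 2 and 3 are the lowest libraries of Col1a1, Col1a2 and Col3a1.

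In the 6 type VI chains the mated libraries differed widely among themselves. Type VI collagen forms beaded filaments between fibrils and basement membranes, in which Col6a1 and Col6a2 combine with a chain of Col6a3 to Col6a6. None of its 6 genes was called in INT against CONT, and their median logFC was -0.90. Col6a1 (ENSMUSG00000001119.7, chromosome 10, 76708792 to 76726168) had 1294, 1460.0 and 1368 CPM in CONT and 1294, 1389.8, 1086 and 980.2 CPM in INT (logFC -0.21, standard error 0.49, FDR 0.767). Col6a2 (ENSMUSG00000020241.13, chromosome 10, 76595762 to 76623630) had 1293, 1552 and 1444 CPM in CONT and 1305, 1405, 1076 and 957 CPM in INT (logFC -0.27, standard error 0.45, FDR 0.667). In both genes the groups overlapped. The 6 chains summed to 6925, 7788 and 7327 CPM in CONT, 5909, 6123, 3465 and 3097 in INT, 5117, 2899, 2884 and 2969 in SVX, 2847, 2459, 3112 and 5869 in SVX_VAS and 8964, 1283, 1874 and 3011 in VAS. VAS replicate 1 was thus the highest of all libraries and VAS replicates 2 and 3 the lowest.

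Col6a3, Col6a4 and Col6a6 were below estrus in every INT library but spread widely within the group. These and other genes outside the naming rule are named because every gene of the family is accounted for, and they were singled out after their values were seen. Col6a3 had 2391, 2305 and 2362 CPM in CONT, 1969.7, 1525, 828 and 625 in INT, 1416, 653, 639.7 and 660.4 in SVX, 628, 604, 693 and 1738 in SVX_VAS and 2673, 385, 593 and 658 in VAS. The high mated libraries were INT replicates 1 and 2, SVX replicate 1, SVX_VAS replicate 4 and VAS replicate 1, and the last was above estrus. Col6a4 was high in the same 5 mated libraries, with 924 to 2134 CPM there, at most 471 CPM in the other 11 mated libraries and 1756 to 2226 CPM in CONT. In INT against CONT the logFC of Col6a3, Col6a4, Col6a5 and Col6a6 were -0.93, -1.09, -0.87 and -0.92, with FDR between 0.190 and 0.325. In SVX against CONT, where 1 of 4 libraries was high, Col6a3 (logFC -1.48, FDR 0.0432) and Col6a4 (logFC -1.85, FDR 0.0262) fell in the edgeR fit.

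Fibril-associated collagens attach to the surface of fibrils and link them to other molecules. Of 7 tested fibril-associated collagens 5 rose. Col9a2 (ENSMUSG00000028626.5, chromosome 4, 121039385 to 121055322), a chain of type IX collagen best known from cartilage, rose from 0.535, 0.574 and 1.21 CPM in CONT to 5.98, 10.2, 9.13 and 20.9 CPM in INT (logFC 3.93, standard error 0.50, FDR 1.71e-05). Of its partner chains, Col9a1 had at most 1 count in any library, and Col9a3 had 1.43, 1.36 and 1.29 CPM in CONT and 1.59, 2.21, 2.34 and 1.75 CPM in INT. Per kilobase the mean level of Col9a3 was above that of Col9a2 in CONT (0.353 ± 0.0179 and 0.2501 ± 0.123 CPM per kilobase, SD, n = 3) and below it in INT (0.511 ± 0.093 and 3.73 ± 2.09, SD, n = 4). In CONT the means lay within their spread, and replicate 4 had the reverse order (0.335 for Col9a3 and 0.392 for Col9a2). Col14a1, which binds fibrils, had 11.2, 11.6 and 23.0 CPM in CONT and 133, 116, 249 and 140.1 CPM in INT (logFC 3.39, standard error 0.32, FDR 2.62e-06). Col16a1 (logFC 1.09), Col22a1 (1.32) and Col20a1 (0.84) rose, and Col12a1 (0.65, FDR 0.116), which lies along type I fibrils, and Col9a3 (0.53, FDR 0.218) did not pass the test.

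Both multiplexins, collagens of the basement membrane zone whose ends can be released as inhibitors of vessel growth, rose. Col15a1 had 139, 229 and 209 CPM in CONT and 671, 672, 1057 and 1015 CPM in INT (logFC 2.15, standard error 0.35, FDR 0.000124). Col18a1, the source of endostatin, had 231, 273 and 237 CPM in CONT and 533, 666, 898 and 909 CPM in INT (logFC 1.61, standard error 0.31, FDR 0.000572). Col7a1, which builds the anchoring fibrils below epithelia, had 86.9, 75.0 and 102 CPM in CONT and 147, 239, 245 and 260.2 CPM in INT (logFC 1.34, standard error 0.23, FDR 0.000170). In these 3 genes no INT library was as low as any estrus library.

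Of 4 transmembrane collagens Col13a1 (logFC 2.40), Col23a1 (2.76) and Col25a1 (2.05) rose, each from under 5 CPM at estrus. Col25a1 reached 3 CPM only in SVX replicate 1 (3.43) and VAS replicates 2 and 3 (5.60 and 4.28), against 1.89 to 2.97 in INT. It thus passed the filter only with VAS replicates 2 and 3 included. Col17a1, the transmembrane collagen of hemidesmosomes, had 6.72, 6.61 and 6.14 CPM in CONT and 4.61, 4.73, 3.76 and 3.64 CPM in INT (logFC -0.63, standard error 0.36, FDR 0.161), and without VAS replicates 2 and 3 its FDR was 0.0145. The largest logFC among the 52 chains was that of Col26a1 (ENSMUSG00000004415.15, chromosome 5, 136741759 to 136883209), which had 0.594, 1.01 and 1.21 CPM in CONT and 12.3, 13.2, 17.1 and 27.0 CPM in INT (logFC 4.21, standard error 0.37, FDR 1.56e-06). Col28a1 had 0.297 to 1.06 CPM in CONT and 2.51 to 7.56 CPM in INT and rose by a logFC of 2.91. The network collagens Col8a1 (FDR 0.0975), Col8a2 (FDR 0.833) and Col10a1 (FDR 0.885) did not pass the test. Col10a1 lay between 10.8 and 15.6 CPM in 17 libraries and at 0.467 and 0 CPM in VAS replicates 2 and 3. A count of 0 in VAS replicate 3 allows up to 3 counts. Its exons overlap Nt5dc1 on the opposite strand.

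Laminins are trimers of an alpha, a beta and a gamma chain, and the alpha chain sets which receptors are bound. Of the chains described here, Lama1, Lama2, Lama4, Lamb2 and Lamc3 rose, Lama5 fell, and Lama3, Lamb1, Lamb3 and Lamc1 were not called. Lama2 (ENSMUSG00000019899.15, chromosome 10, 26980036 to 27619758), the alpha chain of muscle and stromal basement membranes, had 118, 177 and 141 CPM in CONT and 402, 437, 567 and 562 CPM in INT (logFC 1.76, standard error 0.22, FDR 1.58e-05). Lama4 (ENSMUSG00000019846.11, chromosome 10, 38965515 to 39110188), the alpha chain of vessel walls, had 31.7, 50.4 and 44.7 CPM in CONT and 141, 144, 201 and 163 CPM in INT (logFC 1.94, standard error 0.20, FDR 4.08e-06). Lamc3 (ENSMUSG00000026840.14, chromosome 2, 31887291 to 31946539), a gamma chain, had 6.60, 9.80 and 7.89 CPM in CONT, 72.2, 78.3, 111 and 149 in INT, 84.7, 134, 142 and 131 in SVX, 139, 94.7, 144 and 111 in SVX_VAS and 53.6, 96.3, 112 and 135 in VAS (logFC 3.66, standard error 0.34, FDR 2.49e-06 in INT against CONT). All 16 mated libraries were above the 3 estrus libraries for Lama2, Lama4 and Lamc3, and their calls in INT held under all 16 other settings.

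Lama1 (ENSMUSG00000032796.7, chromosome 17, 67697265 to 67822645), the alpha chain of early embryonic membranes, had 0.178, 1.44 and 1.59 CPM in CONT and 8.55, 1.32, 5.53 and 2.52 CPM in INT (logFC 2.06, standard error 0.68, FDR 0.0199), where the groups overlapped and the call was lost with limma-voom, with the replicate block and without CONT replicate 1 or INT replicate 1. Lamb2 (ENSMUSG00000052911.9, chromosome 9, 108479736 to 108490530), a beta chain of vessels and muscle, had 138, 153 and 167 CPM in CONT and 207, 214, 279 and 236 CPM in INT (logFC 0.61, standard error 0.12, FDR 0.000526), close to the fold cutoff. Lamb1 (ENSMUSG00000002900.15, chromosome 12, 31265234 to 31329644) had 391, 464 and 404 CPM in CONT and 432, 385, 482 and 458 CPM in INT (logFC 0.07, standard error 0.16, FDR 0.781). Lamc1 (ENSMUSG00000026478.14, chromosome 1, 153218922 to 153332786), the gamma chain of most laminins, had 327, 325 and 336 CPM in CONT and 409, 406, 600.0 and 440.2 CPM in INT (logFC 0.49, standard error 0.17, FDR 0.0235), with an FDR past the threshold and a change under the fold cutoff.

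Lama5 (ENSMUSG00000015647.9, chromosome 2, 180176373 to 180225859), an alpha chain of epithelial and endothelial basement membranes, had 1146, 934 and 1096 CPM in CONT, 535, 503, 229 and 244 in INT, 275, 221, 208 and 228 in SVX, 201, 602, 243 and 384 in SVX_VAS and 515, 411, 269 and 219.9 in VAS. It fell in INT (logFC -1.49, standard error 0.38, FDR 0.00411), and all 16 mated libraries were below estrus. Lama3 and Lamb3 encode chains of the laminin of hemidesmosomes, which anchors epithelial cells. Lamb3 had 171, 151 and 162 CPM in CONT, 93.6, 65.8, 8.04 and 7.35 in INT, 17.2, 6.06, 5.12 and 5.30 in SVX, 5.75, 63.9, 7.12 and 24.6 in SVX_VAS and 79.0, 62.1, 30.0 and 8.26 in VAS. INT replicates 1 and 2 lay several-fold above INT replicates 3 and 4, and the gene was not called there (logFC -1.88, standard error 0.93, FDR 0.107). It was called lower with the replicate block (logFC -2.23, FDR 0.0419), with limma-voom (logFC -2.77, FDR 0.0200) and without INT replicate 1 (FDR 0.0480). Lama3 had 334, 375 and 372 CPM in CONT, 304, 196, 168 and 159.7 in INT, 162, 119, 114 and 142 in SVX, 155, 521, 144 and 143 in SVX_VAS and 191, 326, 164 and 173 in VAS. It was not called in INT (logFC -0.80, standard error 0.40, FDR 0.108), SVX_VAS replicate 2 was the only mated library above estrus, and its exons overlap Gm29200 on the opposite strand.

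**Figure D4:**
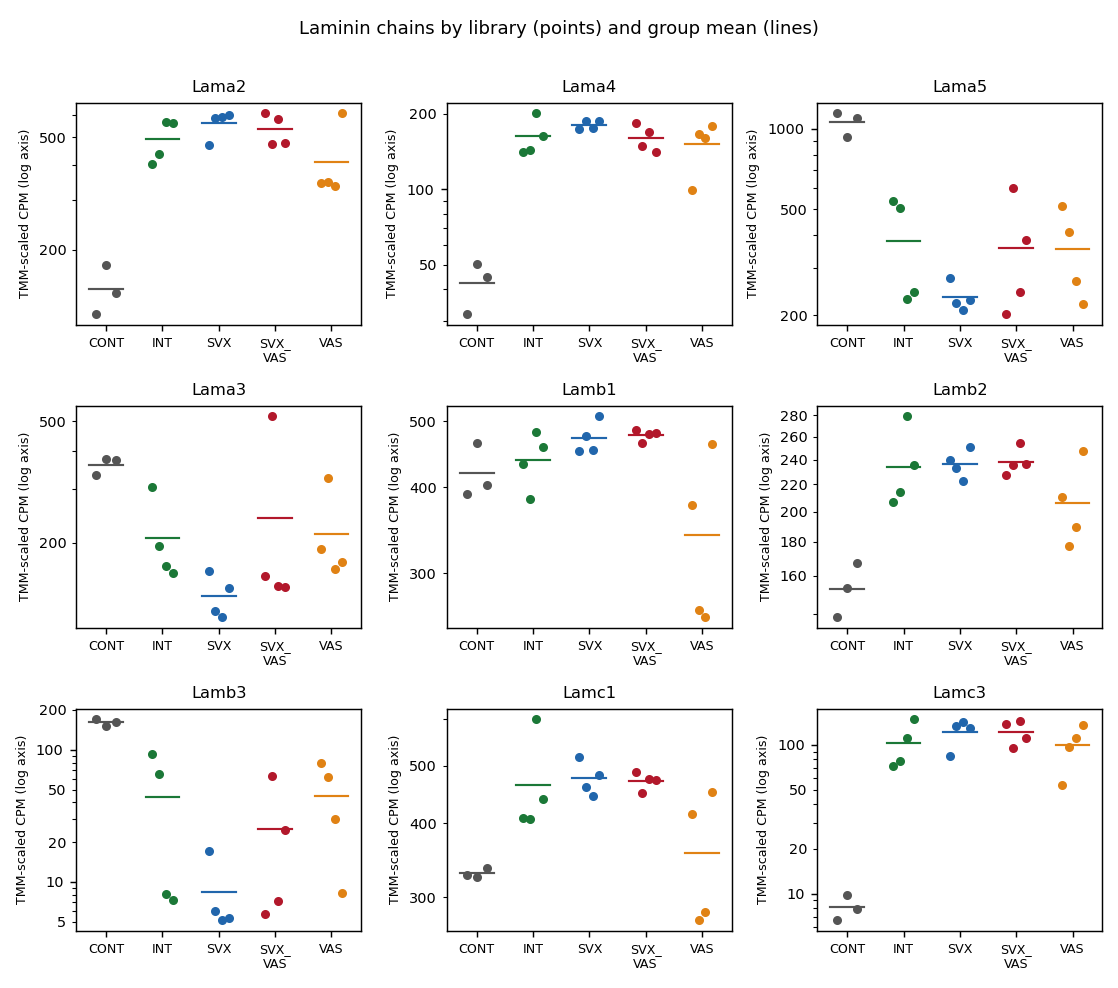
TMM-scaled CPM of 9 laminin chains (log y axes) in the libraries of the 5 groups (x axis), with points for libraries and lines for group means. Lama2, Lama4 and Lamc3 lie above estrus in all mated libraries, Lama5 and Lamb3 lie below it, and SVX_VAS replicate 2 is the highest of its group for Lama3, Lama5 and Lamb3.

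Summed, Lama3 and Lamb3 had 506 to 534 CPM in CONT, 397, 261, 176 and 167 in INT, 179, 125, 119 and 148 in SVX, 161, 585, 151 and 168 in SVX_VAS and 270.2, 388, 194 and 182 in VAS. The 6 epithelial markers (Epcam, Cdh1, Krt8, Krt18, Krt19 and Cldn3) summed to 3153 to 4287 CPM in CONT, 2249.6, 1884, 717 and 1030.4 in INT, 1037, 864, 792 and 767 in SVX, 909, 1879, 935 and 1264 in SVX_VAS and 1962, 563, 470.2 and 851 in VAS. Of these 6 markers Epcam, Cdh1, Krt8 and Krt18 fell in INT against CONT. The list of estrogen-response genes (Ltf, Muc1, Lcn2, C3 and Sprr2f) summed to 9352 to 11904 CPM in CONT, 8006, 2811, 191 and 254 in INT, 566, 222, 193 and 224 in SVX, 234, 8665, 234 and 997 in SVX_VAS and 2279, 878, 472 and 188 in VAS. INT replicate 1, SVX replicate 1 and SVX_VAS replicate 2 had the highest sums of their groups in all 3 of these lists. In VAS replicate 1 had the highest sums of the 2 marker lists and replicate 2 that of Lama3 and Lamb3. The part of epithelial content and of the estrogen-response genes in the laminin and type VI values was not tested.

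**Figure D5:**
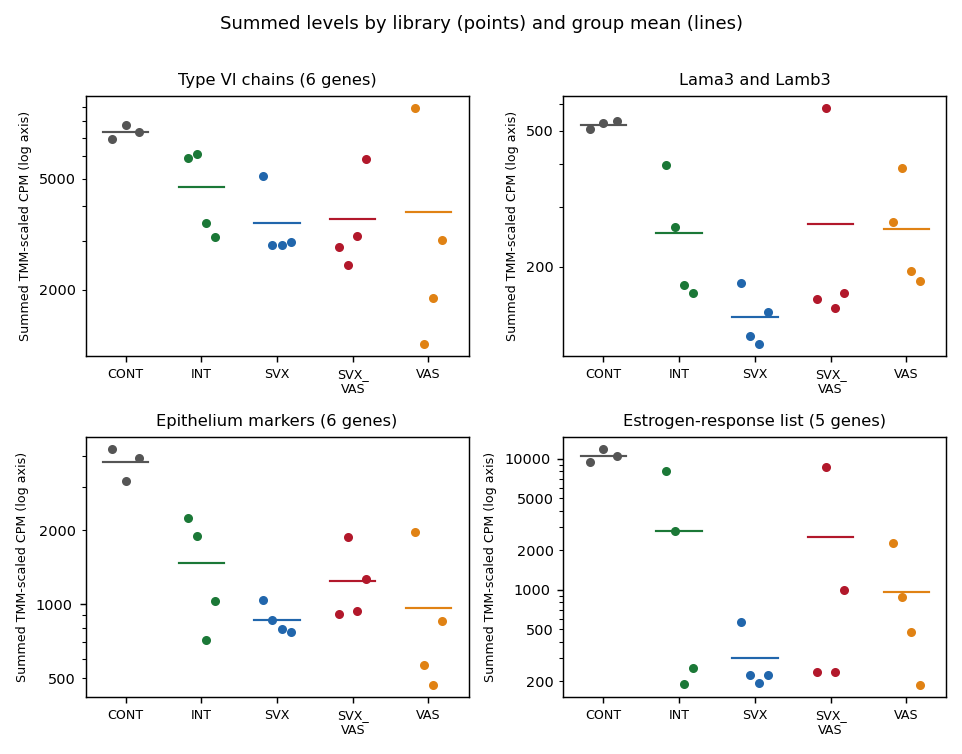
Summed TMM-scaled CPM (log y axes) of the 6 type VI chains, of Lama3 and Lamb3, of 6 epithelial markers and of 5 estrogen-response genes in the libraries of the 5 groups (x axis), with points for libraries and lines for group means. SVX_VAS replicate 2 is high for the 2 laminin chains and both marker sums but is the lowest of its group for type VI, and VAS replicate 1 has the highest type VI sum of the 19 libraries.

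On a scale per length (CPM per kilobase of merged exons), the order of the chains changed between the groups. At estrus Col1a1 (327 ± 32.1, SD, n = 3) and Col6a1 (314 ± 19.02) had the highest levels per kilobase and did not differ beyond their spread. Col6a4 (232 ± 27.6), Col6a3 (197 ± 3.66) and Col3a1 (176 ± 8.69) followed. In INT Col3a1 came first with 354 ± 24.8 per kilobase (SD, n = 4), within the spread of Col1a1 (317 ± 96.9), and Col4a1 had rank 4 (177 ± 35.1), from rank 10 at estrus. Lama5 moved from rank 9 to rank 18. The ranks within a group depend on the length used for each gene, as the ratios below do.

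Ratios of chains that assemble together (Col1a1 and Col1a2, Col4a1 and Col4a2, and the type VI chains) or take the same place in a trimer (Lama4 and Lama5, Lamb1 and Lamb2) were taken per kilobase in each library and have no test. Col4a1 to Col4a2 stood at 1.55, 1.53 and 1.58 in CONT and 1.56, 1.34, 1.44 and 1.41 in INT, with overlap. Col6a1 to Col6a2 lay at 1.79 to 1.90 in CONT and 1.88 to 1.95 in INT, again with overlap. Col6a1 to Col6a3 stood at 1.48, 1.73 and 1.58 in CONT and 1.79, 2.49, 3.58 and 4.28 in INT, and INT replicates 3 and 4 were the highest. Lama4 to Lama5 stood at 0.0261, 0.051 and 0.0385 in CONT and 0.248, 0.27, 0.827 and 0.628 in INT, without overlap. Lamb1 to Lamb2 stood at 1.74, 1.86 and 1.48 in CONT and 1.28, 1.10, 1.06 and 1.19 in INT, and Col1a1 to Col1a2 at 2.68, 2.45 and 2.48 in CONT and 2.27, 1.82, 2.25 and 1.99 in INT, both lower in every INT library. The size of a ratio depends on the length used for each gene, and the comparison between groups does not.

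The sets SVX, SVX_VAS and VAS were compared with the same 3 CONT libraries, so that these comparisons are not independent of the first or of each other. In SVX 24 of 52 chains rose and 7 fell, against 23.1% and 18.5% of all genes tested. Among the 7 that fell were Col6a3, Col6a4, Col17a1 (logFC -1.12, FDR 0.0144), Lama3 (logFC -1.42, FDR 0.00602), Lama5 (logFC -2.18, FDR 0.000159) and Lamb3 (logFC -4.26, FDR 0.00200). In SVX_VAS 23 chains rose and 4 fell, against 22.2% and 16.5% of all genes. Among those that fell were Col6a4 (logFC -1.70), Lama5 (-1.57) and Lamb3 (-2.67). Without CONT replicate 1, SVX_VAS replicate 1 or SVX_VAS replicate 3, 2 chains fell in SVX_VAS, and Col6a4 and Lamb3 were then not called. In VAS 24 chains rose and 3 fell (Col17a1 and Lama5 among them), against 23.3% and 17.3% of all genes. Col9a3 and Col25a1, both among the 24, passed the filter only with VAS replicates 2 and 3 included, as did Col8a1. The rise of Col9a3 and Col25a1 in VAS thus rests partly on the libraries that let them be tested. Without VAS replicates 2 and 3, 49 chains were tested, of which 21 rose and 2 fell in VAS, against 22.1% and 14.2% of all genes. The call of Col17a1, which had 4.06, 1.77, 1.69 and 6.50 CPM in VAS, was then lost (logFC -0.31, FDR 0.307). Without VAS replicate 1, 10 chains fell in VAS, against 22.9% of all genes, among them Col1a1, Col1a2, Col5a1 and Col6a1 to Col6a4. Lama5 fell in all 4 comparisons with estrus.

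Set side by side, the logFC of Col4a6 against estrus was 3.36 in INT, 3.73 in SVX, 3.52 in SVX_VAS and 3.30 in VAS. For Col26a1 it was 4.21, 4.12, 4.24 and 4.28, and for Lamc3 3.66, 3.92, 3.91 and 3.61. Each of these values was called, and without VAS replicates 2 and 3 the values in VAS were 3.28, 3.98 and 3.53, also called. By class, the median logFC of the fibrillar chains was -0.14 in SVX, -0.12 in SVX_VAS and 0.05 in VAS, and that of the other collagens 1.06, 0.98 and 1.06. For the 6 type VI chains it was -1.38, -1.32 and -0.70, and for the 11 laminins 0.53, 0.52 and 0.11. Without VAS replicates 2 and 3 the medians in VAS were 0.17 for the fibrillar, 0.88 for the other (22 tested), 0.010 for the type VI and 0.39 for the laminin chains. Type IV collagen had 4, 4 and 2 of 6 chains higher in SVX, SVX_VAS and VAS, against 23.1%, 22.2% and 23.3% of all genes. In VAS Col4a1 (logFC 0.18, FDR 0.646) and Col4a2 (logFC 0.47, FDR 0.158) were not called in edgeR, and without VAS replicates 2 and 3 their logFC were 0.76 and 0.95 with FDR of 0.00228 and 0.000407.

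Whether the surgery of the male changed the chains was addressed by comparing SVX, SVX_VAS and VAS with INT, which the 3 comparisons share. In edgeR no chain was called in any of them (0% of all genes tested in each). At an unadjusted p under 0.05 there were 3 chains of 52 in SVX, 0 in SVX_VAS and 8 in VAS, where all genes gave 749, 339 and 1831 of 17222. DESeq2 called none of the chains in these comparisons, and limma-voom called Col10a1 lower in VAS (logFC -3.91, FDR 0.0233), as it did 1643 of all 17222 genes, with 20 higher. In this gene VAS replicates 2 and 3 hold the values near 0 given above. In edgeR without VAS replicate 1, Col1a1 and Col1a2 were lower and Col20a1 higher in VAS than in INT, beside 466 lower and 110 higher of all 17198 genes. Without VAS replicate 4, Col4a1, Col15a1 and Col18a1 were lower, beside 126 lower and 8 higher of all 17191 genes. In both cases VAS replicates 2 and 3 were 2 of the 3 VAS libraries left. Without VAS replicates 2 and 3 no chain was called. The 3 in SVX included Col28a1 (logFC 1.41, standard error 0.49) and Lamb3 (-2.38, 0.93), both with an FDR of 0.9997. The 8 in VAS (Col15a1, Col18a1, Col25a1, Col4a1, Col4a2, Col5a2, Lamb1 and Lamc1) had an FDR of 0.452. In a test of any difference among the 4 mated groups no chain was called in edgeR (0% of all genes), with 7 chains and 1213 of all genes at an unadjusted p under 0.05 and a lowest FDR of 0.635. limma-voom called Col10a1 there among 1396 genes in all, DESeq2 called 0 chains among 21 genes, and edgeR without VAS replicate 4 called Col15a1 and Lamb1 among 172 genes. These p-values do not show that the groups are alike, since the standard error of the logFC against INT was as large as 0.93 for Lamb3.

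Enzymes and partners of the collagens were taken from 5 lists, to be read against the 20.9% of all genes tested that rose in INT against CONT and the 12.7% that fell. Of 19 genes for hydroxylation, glycosylation and folding of collagen 6 rose (31.6%) and 1 fell (5.26%), from Colgalt2 (logFC -1.39, FDR 0.00201), which adds galactose to collagen, to P3h3 (logFC 1.94, FDR 1.45e-06), a prolyl hydroxylase. Of 13 tested genes for propeptide cleavage and crosslinking 5 rose (38.5%) and 2 fell (15.4%), from Pcolce2 (logFC -1.92, FDR 0.0300), an enhancer of procollagen cleavage, to the protease Tll1 (logFC 2.59, FDR 0.000507). Of 13 fibril-binding proteins 8 rose (61.5%) and 1 fell (7.69%), from Ogn (logFC -1.25, FDR 0.0101) to Postn (logFC 2.50, FDR 2.67e-05). Of 12 other basement membrane genes 7 rose (58.3%) and 2 fell (16.7%), from the fibulin Fbln1 (logFC -1.43, FDR 0.00256) to Frem1 (logFC 4.04, FDR 2.52e-05). Of 15 tested receptors 5 rose (33.3%) and 6 fell (40%). They ran from Itga2 (logFC -1.39, FDR 0.149), which was not called, to Itga1 (logFC 1.88, FDR 1.03e-05), both alpha chains of collagen-binding integrins. The median logFC of the 5 lists, in this order, was -0.06, 0.22, 1.12, 0.91 and -0.25.

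Cell type markers moved between the same groups. In INT against CONT 6 of 6 stromal markers rose, with sums of 529 to 806 CPM in CONT, 1473 to 2232 in INT, 1891 to 2141 in SVX, 1719 to 2076 in SVX_VAS and 818 to 2139 in VAS (1249 and 2139 without VAS replicates 2 and 3). All 6 progesterone-response genes rose, Hand2 being on both lists, and of 5 estrogen-response genes Muc1 fell. Of 6 leukocyte markers 4 rose and 2 fell, and 4 of 5 red blood cell genes rose. Of 3 tested genes for mesothelium and fat none was called. The whole list of 6, tested or not, summed to at most 43.4 CPM in every library. The part of these cell types in the values of the chains was not tested.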

How the data were processed

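RNA-seq counts per gene from 19 pooled endometrium libraries were analysed. The authors trimmed reads with AdapterRemoval version 2, aligned them with STAR to GRCm38/mm10 and deposited the counts of featureCounts. The library kit was stranded. The versions of STAR and featureCounts and the strand setting of the counting are not given in the sources used here. The table also holds the exon length of each gene, per the file headers, which was used for levels per kilobase. The 37 mitochondrial genes were listed at 0 counts. Totals were 12661266 to 31781270 counts, and replicates of a group differed beyond sampling noise.

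All 19 libraries were fitted in 1 model with edgeR 4.0.16 (TMM, quasi-likelihood test, R 4.3.3), with contrasts against CONT and INT. The filter before it was 3 CPM, without TMM scaling, in 3 libraries. Calls needed an FDR of 0.05 or less over 17222 genes and a fold change of 1.5 or more. Alternatives were DESeq2 1.42.0, limma-voom (limma 3.58.1), other scaling and filters, no logFC cutoff, only the compared groups, a replicate block, and leaving out libraries. Leaving out VAS replicates 2 and 3, also together with SVX_VAS replicate 2, was chosen after seeing the data. The procedure was tested on simulated data.

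The rule for the members uses gene symbols alone, and this gene family and the lists were chosen with earlier results of these data known. 1 gene that the rule matches is counted in the sums and numbers of chains, and its own values are not reported here. Full values are given, per class, for the 2 genes of highest CPM per kilobase and the 2 largest rises and falls in INT against CONT, and for any gene called against INT. In this naming rule the laminin alpha, beta and gamma chains counted as separate classes. For other lists the genes of largest and smallest logFC are named. Gene symbols came from GENCODE for 48435 of 49089 identifiers. Promoter windows came from RefSeq (GRCm38.p6) for 40 of 55 chains.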

Additional observations from a re-analysis of the deposited data

Results flagged for a closer look

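In 100 sets of 4 libraries searched for 1 library far from the other 3 (21 named genes and the class sums), 7 were found where chance gives about 5. SVX replicate 1 stood apart in 5 of them. On the log2 CPM scale it had 7.31 for Col4a6 against 7.86 to 7.89 in the other SVX libraries, 10.37 for Col6a2 against 9.81 to 9.88, 8.88 for Lama2 against 9.19 to 9.23 and 6.40 for Lamc3 against 7.03 to 7.15. Its sum of the other collagens was 7365 CPM against 5429 to 5551 CPM. The same library had the highest estrogen-response and epithelial sums of its group. VAS replicate 4 had 9.25 for Lama2 against 8.40 to 8.44 in VAS replicates 1 to 3. SVX_VAS replicate 2 had 3444 CPM summed over the laminins against 2572 to 2623 CPM in the rest of its group. The part of these marker genes in the values above was not tested.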

How the results depend on the processing

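The number of chains higher against estrus stayed within 1.5 times the reported count in the settings tried for each of the 4 comparisons. The number lower moved in 3 of them. With only the compared groups in the fit it was 4 in INT (Col17a1, Lama3 and Lama5 among them) and 7 in SVX_VAS, and with limma-voom it was 7 in VAS, where 13.9%, 18.8% and 28.2% of all genes fell. Leaving out single libraries gave 2 to 6 lower in SVX_VAS and 2 to 10 in VAS, against 13.99% to 17.6% and 13.5% to 22.9% of all genes. Against INT, VAS gave 0 to 1 chains higher and 0 to 3 lower when single libraries were left out, and 1 lower with limma-voom. The test among the mated groups gave 1 chain with limma-voom and 0 to 2 without single libraries. The cause of these moves was not tested. The logFC of Col1a1 in INT was 0.069 with upper quartile scaling, which raised the median of all genes by a like amount (values below), turned to 0.030 with the replicate block, and ran from -0.27 to 0.095 without single libraries. That of Lamb1 ran from -0.013 to 0.14, turning without INT replicate 3. Upper quartile scaling moved the median logFC of all genes from -0.01 to 0.12, and Lamc1 was then called. The call of Lamb2 was lost with a filter of 1 CPM and without CONT replicate 1 or INT replicate 3.

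With the longest transcript as gene length, mean ratios in CONT and INT were 1.21 and 0.992 for Col1a1 to Col1a2, 1.71 and 1.58 for Col4a1 to Col4a2, 1.15 and 1.202 for Col6a1 to Col6a2, 2.68 and 1.84 for Lamb1 to Lamb2, and 0.0769 and 0.985 for Lama4 to Lama5. Col6a1 to Col6a3 was 1.44 in CONT and 2.74 in INT.

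Replicate numbers were not treated as pairs. Of 36 same-numbered pairs of libraries 15 correlated above 0.1 (median r 0.047), against 35 of 108 other pairs (median r -0.034). Single values ran from -0.69 to 0.58 and from -0.75 to 0.77, so that they do not settle whether the numbers pair the samples. With the replicate block 23 chains were higher and 3 lower in INT against CONT, 23 and 7 in SVX, 23 and 3 in SVX_VAS, 23 and 2 in VAS, and 0 in the comparisons with INT. With it 20.2%, 22.6%, 21.6% and 22.4% of all genes were higher against CONT, in this order, and 12.3%, 17.6%, 15.6% and 16.9% lower. Depth limits chains near the floor of 3 counts, such as Col2a1, Col9a1 and Col19a1.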
